A study of Homo sapiens with 6 samples.

Results

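The genes described here are 9 genes of MHC class I antigen presentation, listed by symbol and found in the deposited expression table (the table writes HLA symbols with a dot): HLA.B, HLA.C, HLA.E, HLA.F, B2M, TAP1, TAP2, TAPBP and NLRC5. They were 9 of the 58174 genes in the table, and all 9 were found. The libraries came from KNS42, a cell line derived from a pediatric glioblastoma (GBM). The cells were grown in DMEM with serum and harvested 72 h after transfection either with a control siRNA (siC, n = 3) or with a pool of siRNAs directed against MSI1 (siMSI1, n = 3), an RNA-binding protein of neural stem and progenitor cells. No other treatment, and no interferon, is named for either group. PolyA-selected RNA was sequenced, with 14448513 to 18024080 reads on genes in the siC libraries and 13087025 to 14700593 in the siMSI1 libraries. All libraries stem from 1 cell line, and it is not stated whether the replicates were separate cultures, so the p-values measure the spread between these samples, which may be technical.

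MHC class I molecules carry short peptides from inside the cell to its surface, where cytotoxic T cells read them. Each molecule pairs a heavy chain, encoded by an HLA gene, with the light chain beta-2-microglobulin. Peptides cut by the proteasome are pumped into the endoplasmic reticulum by the TAP transporter and loaded onto the heavy chain with the help of tapasin. The promoters of these genes respond to interferon through IRF and STAT factors, to NF-kB, and to an enhanceosome of RFX, CREB/ATF and NF-Y factors that recruits NLRC5, or at class II genes CIITA.

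The promoters of 5 of the genes are shown, each with an IRF-type word and a match to the NF-kB consensus in a short stretch. RefSeq promoter windows (GRCh38.p14, 250 bases before to 50 after the start site) were found for 7 of the 9 genes. HLA.E and NLRC5 had no entry, and TAP1 had 2, of which the first is shown. Each stretch below lies upstream of the start site and reads 5′ to 3′ on the strand of the gene, and capitals mark matches to 5 motifs searched on both strands: the IRF-type words TTTCNNTTC and TTCNNTTTC, the CRE core TGACG, the CCAAT box CCAAT, and the NF-kB consensus.
HLA.B, chr6:31357225-31357374, minus strand: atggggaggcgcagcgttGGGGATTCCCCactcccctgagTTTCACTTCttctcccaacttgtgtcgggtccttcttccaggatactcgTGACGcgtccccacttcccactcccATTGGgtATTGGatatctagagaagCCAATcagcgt
HLA.C, chr6:31272138-31272287, minus strand: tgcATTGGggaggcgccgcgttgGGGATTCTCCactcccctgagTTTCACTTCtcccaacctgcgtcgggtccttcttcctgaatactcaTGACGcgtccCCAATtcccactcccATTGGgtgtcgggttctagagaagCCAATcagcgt
B2M, chr15:44711362-44711481, plus strand: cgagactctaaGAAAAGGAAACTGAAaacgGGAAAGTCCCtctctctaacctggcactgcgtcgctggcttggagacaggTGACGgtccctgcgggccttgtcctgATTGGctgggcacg
TAP1, chr6:32853760-32853844, minus strand: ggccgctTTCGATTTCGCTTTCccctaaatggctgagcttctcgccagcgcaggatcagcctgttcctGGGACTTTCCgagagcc
TAPBP, chr6:33314079-33314143, minus strand: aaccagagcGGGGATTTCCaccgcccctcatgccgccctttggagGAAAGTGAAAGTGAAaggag
An IRF-type word was present in the first listed window of all 7 genes, against 14.5% of the 35116 promoters in the RefSeq table. In B2M, TAP1, TAP2 and TAPBP, neighbouring IRF-type matches overlapped. The NF-kB consensus occurred in the windows of HLA.B, HLA.C, B2M, TAP1 and TAPBP (5.91% of all promoters), and TGACG in those of HLA.B, HLA.C, B2M and TAP2 (24.6%). The CCAAT box lay in the windows of HLA.B, HLA.C, HLA.F, B2M and TAP1 (34.6%). The IRF-type words alone occurred in 7.66% (TTTCNNTTC) and 8.11% (TTCNNTTTC) of promoters. HLA.B and HLA.C shared the same order of matches, from NF-kB through the IRF-type word and TGACG to the CCAAT boxes, apart from 1 more CCAAT box at the upstream end of HLA.C. In TAPBP the IRF-type words ended 6 bases before the start site, whereas in HLA.B the match began 155 bases before it. The start sites of TAP1 and PSMB9, an immunoproteasome subunit read from the opposite strand, were 488 bases apart. The second TAP1 window held no match to any of the 5 motifs. A match is a description of the sequence only.

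**Figure D1:**
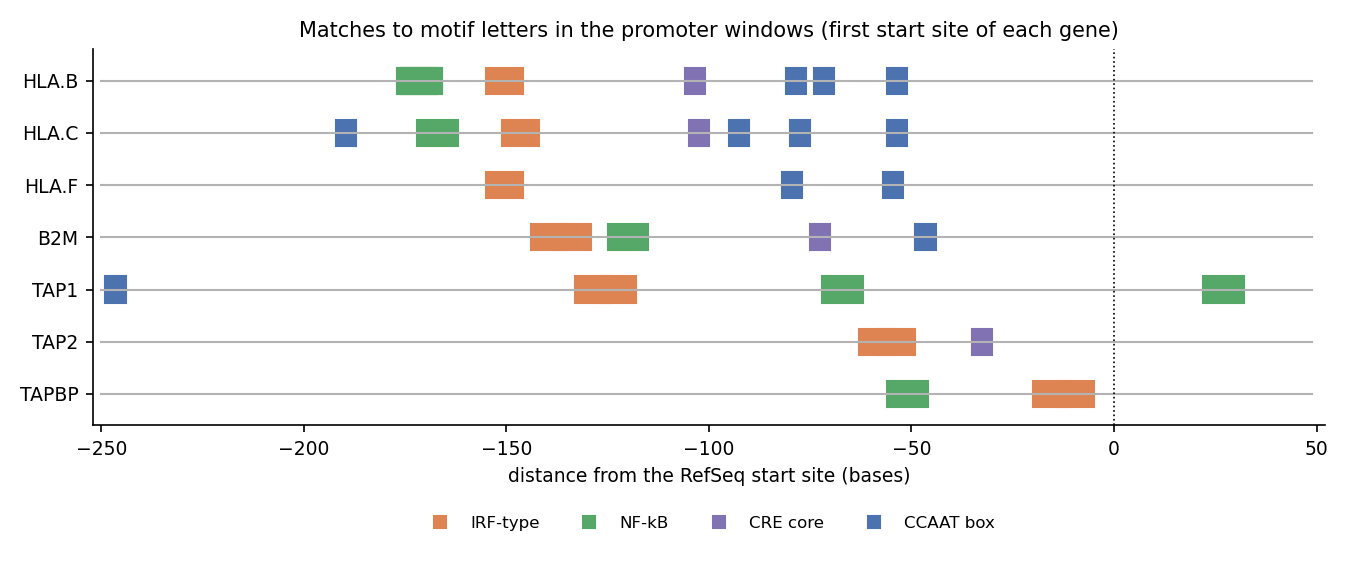
Positions of motif matches in the RefSeq promoter windows of 7 class I genes. The x axis gives the distance from the start site in bases, each row is the first listed promoter of a gene, and colours stand for the motif. IRF-type matches (orange) appear in all 7 rows.

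The knockdown itself was visible in every library. The 3 siC libraries held MSI1 at 63.7, 61.9 and 66.9 FPKM (reads scaled to gene length and library depth), and the siMSI1 libraries at 12.1, 12.3 and 11.2 FPKM. Its log2 fold change was −2.43 (SE 0.07, adjusted p = 8.7e-06, limma). Here and throughout, a fold change is siMSI1 over siC on log2(FPKM + 0.1), which understates the change of low genes, and the adjusted p comes from limma over all 15069 genes with a mean of at least 0.5 FPKM, with a call at an adjusted p of at most 0.01. Under this rule, 1655 of the tested genes were called (11.0%), 879 lower (5.83%) and 776 higher (5.15%) in siMSI1, with as many below 0 (7534) as above (7535). Of 10 glioma and neural markers, 8 passed the filter. VIM, also expressed outside the nervous system, and the neural stem cell factor SOX2 were at 1035 and 301 FPKM in siC, GFAP was at 1.63 FPKM, and S100B and OLIG2 were listed at 0 in all libraries. No immune cell marker of 12 passed the filter, and 2 were at 0 in all libraries. The most abundant of them, CD68, had 0.183, 0.202 and 0.159 FPKM in siC and 0.248, 0.348 and 0.509 in siMSI1, on 5 to 16 reads. It was higher in every siMSI1 library, while the other immune markers overlapped between the groups. PTPRC had 0 to 3 reads. The summed level of the 12 markers was 0.874, 0.852 and 0.367 FPKM in siC against 0.520, 0.568 and 1.16 in siMSI1. The part of CD68 in the class II results below was not tested.

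None of the class I genes was called after MSI1 knockdown. Of the 9 genes, 7 passed the filter and 0 passed the adjusted threshold, beside 11.0% of all tested genes. At that share, a count of 0 among 7 genes does not set them apart from the rest. At an unadjusted p under 0.05 there were 4 of 7 (TAPBP, HLA.E, HLA.B and B2M), beside 38.3% of all tested genes, and limma voom on the reads recovered from the table called 1 (TAPBP), beside 17.9%. The fold changes ran both ways, 3 below 0 and 4 above, from −0.65 (TAPBP) to 0.27 (B2M), with a median of 0.05 beside 1.5e-05 over all tested genes. The 3 libraries of each group did not overlap for 4 of the 7 tested genes (HLA.E, B2M, TAPBP and NLRC5), beside 42.8% of all tested genes. With 3 libraries against 3, the smallest p an exact permutation test can give is 0.1, so that test could not reach 0.05 for any single gene. In bulk RNA, fewer cells expressing a gene and less RNA per cell cannot be told apart.

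**Figure D2:**
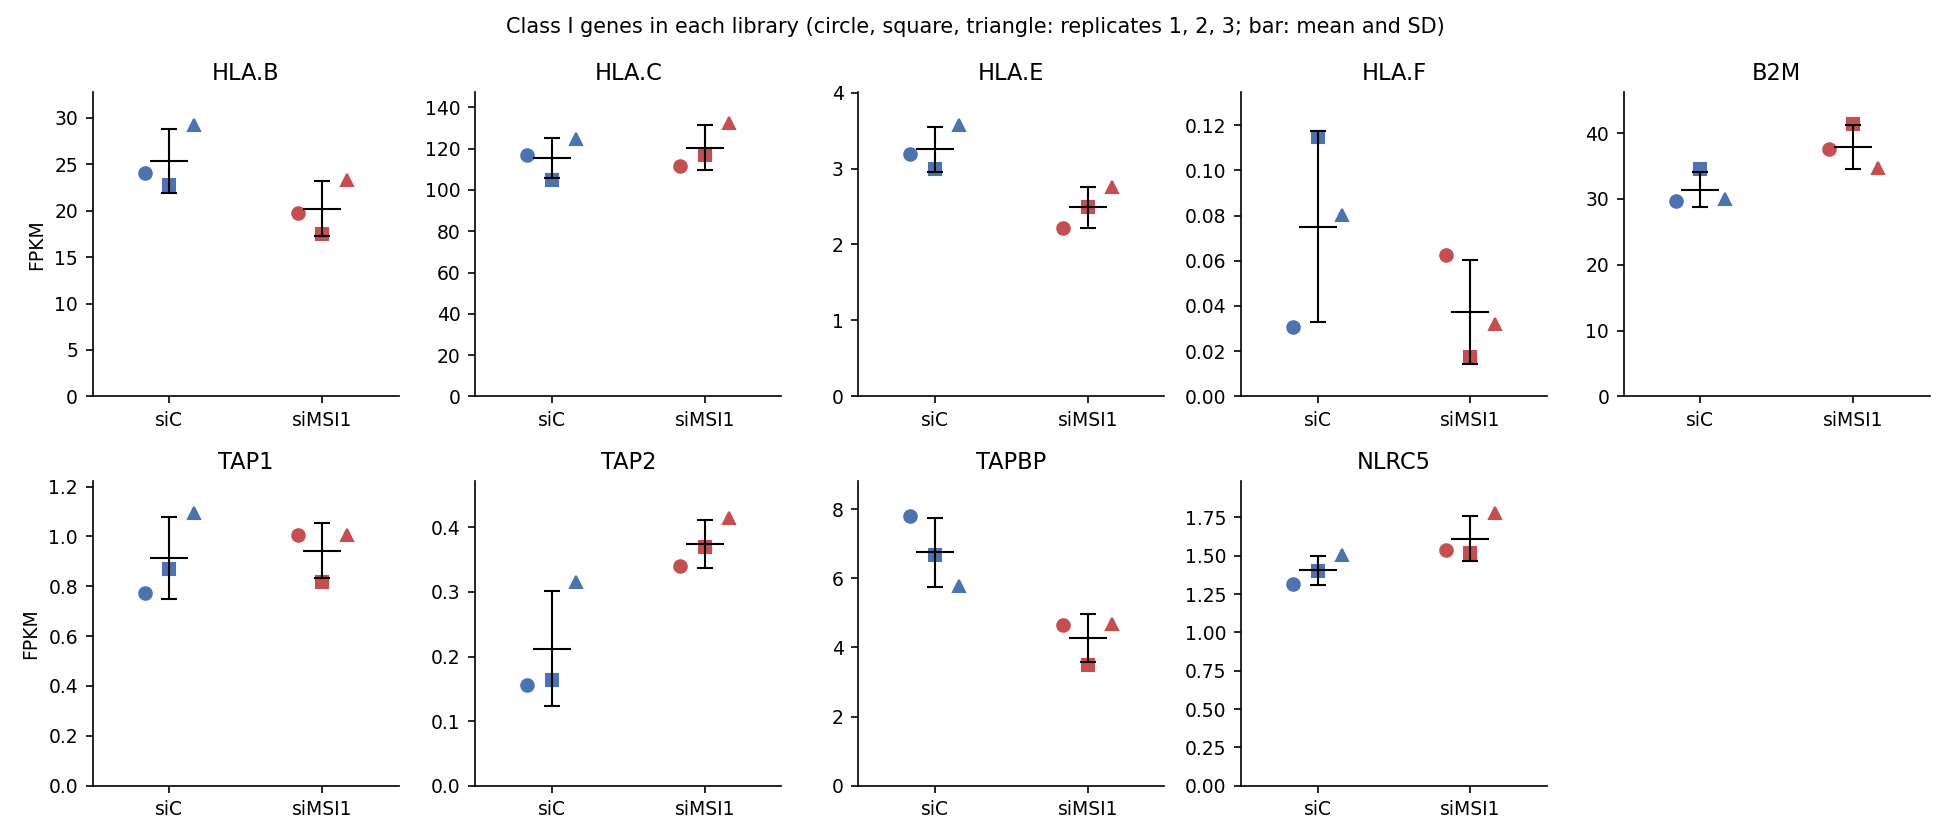
FPKM of the 9 class I genes in each library, siC in blue and siMSI1 in red. Marker shapes stand for replicates 1 to 3, and bars give the mean and SD (n = 3). HLA.B spreads from 17.5 to 29.2 FPKM over the 6 libraries, and the groups are apart for HLA.E, B2M, TAP2, TAPBP and NLRC5.

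The genes covered a wide range of levels. Gene positions below are on GRCh38 (GENCODE release 44). In siC, the mean FPKM descended in the order HLA.C, B2M, HLA.B, TAPBP, HLA.E, NLRC5, TAP1, TAP2 and HLA.F, from 115 ± 9.83 (SD, n = 3) to 0.0751 FPKM, and no neighbours in that order overlapped between libraries. The order was the same in siMSI1, again without overlap between neighbours. FPKM divides by the gene length in the table, which was 6089 bases for B2M, the gene of a small protein, and 2507 bases for HLA.C. The classical heavy chain genes resemble each other and differ between people, and how reads matching several of them were counted is not stated, so the split of reads between them is uncertain.

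The classical heavy chains present peptides to cytotoxic T cells. HLA.B (ENSG00000234745, chr6:31353872-31367067, minus strand) had levels of 24.1, 22.7 and 29.2 FPKM in siC compared with 19.8, 17.5 and 23.3 in siMSI1. The highest siMSI1 library exceeded the lowest siC library, so the groups overlapped. The mean was 25.4 ± 3.41 against 20.2 ± 2.95 FPKM (SD, n = 3), with a log2 fold change of −0.33 (−0.63 to −0.03, adjusted p = 0.103, limma).

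HLA.C (ENSG00000204525, chr6:31268749-31272130, minus strand), the most abundant of the 9 genes, had levels of 117, 105 and 125 FPKM in siC compared with 112, 117 and 133 in siMSI1. The groups overlapped almost entirely. The log2 fold change was 0.06 with an interval of −0.15 to 0.27 (adjusted p = 0.672, limma), and its sign depended on the libraries included. Added together, HLA.B and HLA.C amounted to 141, 128 and 154 FPKM in siC and to 132, 134 and 156 FPKM in siMSI1, again with overlapping groups.

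The non-classical heavy chain HLA.E, a ligand of NKG2 receptors on NK cells, was far lower than HLA.B and HLA.C. HLA.E (ENSG00000204592, chr6:30489509-30494194, plus strand) had levels of 3.19, 2.99 and 3.57 FPKM in siC compared with 2.21, 2.49 and 2.76 in siMSI1, resting on 97 to 161 reads per library. All siMSI1 libraries lay below all siC libraries. The log2 fold change was −0.37 (SE 0.12, interval −0.66 to −0.09), and the adjusted p of 0.0602 (limma) did not pass the threshold. HLA.F (ENSG00000204642, chr6:29722775-29738528, plus strand), another non-classical heavy chain, had 2, 9 and 5 reads in siC and 4, 1 and 2 in siMSI1. HLA.F lay below the filter of 0.5 FPKM. When fitted without the filter, its log2 fold change was −0.33 (SE 0.32, adjusted p = 0.574, limma), so no difference was detectable at this depth.

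B2M (ENSG00000166710, chr15:44711358-44718851, plus strand), the light chain shared by all class I molecules, had levels of 29.7, 34.5 and 30.1 FPKM in siC compared with 37.6, 41.4 and 34.7 in siMSI1. The lowest siMSI1 library lay just above the highest siC library. Its log2 fold change of 0.27 (SE 0.09, interval 0.06 to 0.48) was opposite in sign to those of HLA.B and HLA.E and missed the threshold (adjusted p = 0.0664, limma). Across the 6 libraries, log2 levels of HLA.B and HLA.E went together (Pearson r = 0.88), whereas B2M ran against HLA.B (r = −0.92) and TAPBP (r = −0.85). These were among the strongest of all pairs of tested members. HLA.C, the most abundant heavy chain, was at r = 0.36 with HLA.B and −0.22 with B2M. These correlations describe 6 libraries that also differ in group.

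The peptide transporter genes were low. TAP1 (ENSG00000168394, chr6:32845209-32853816, minus strand) had levels of 0.773, 0.869 and 1.09 FPKM in siC compared with 1.01, 0.816 and 1.004 in siMSI1, on 49 to 72 reads. The groups overlapped, and the log2 fold change of 0.05 had a wide interval of −0.43 to 0.53 (adjusted p = 0.887, limma). TAP2 (ENSG00000204267, chr6:32821833-32838739, minus strand) had 15, 19 and 29 reads in siC (0.157, 0.164 and 0.315 FPKM) and 32, 31 and 38 reads in siMSI1 (0.340, 0.370 and 0.414 FPKM). All siMSI1 libraries were above all siC libraries, but TAP2 lay below the filter of 0.5 FPKM. When fitted without the filter, its log2 fold change was 0.64 (SE 0.30, adjusted p = 0.277, limma).

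TAPBP, encoding tapasin, which bridges TAP and the heavy chain, showed the lowest fold change of the 7 tested genes. TAPBP (ENSG00000231925, chr6:33299694-33314284, minus strand) had levels of 7.79, 6.67 and 5.77 FPKM in siC compared with 4.66, 3.49 and 4.68 in siMSI1. All siMSI1 libraries lay below the lowest siC library, and the mean was 63.4% of that in siC. The log2 fold change was −0.65 (SE 0.15, interval −0.997 to −0.30) with an adjusted p of 0.0182 (limma), above the threshold of 0.01. Over the alternative settings it stayed between −0.75 and −0.51, with adjusted p from 0.0024 to 0.068.

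NLRC5 (ENSG00000140853, chr16:56989485-57083531, plus strand), the transactivator of class I promoters, had levels of 1.31, 1.40 and 1.504 FPKM in siC compared with 1.54, 1.52 and 1.78 in siMSI1. The groups were narrowly apart, and the log2 fold change was 0.18 (interval −0.14 to 0.51, adjusted p = 0.381, limma). With 1 library left out it ran from 0.11 to 0.23.

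**Figure D3:**
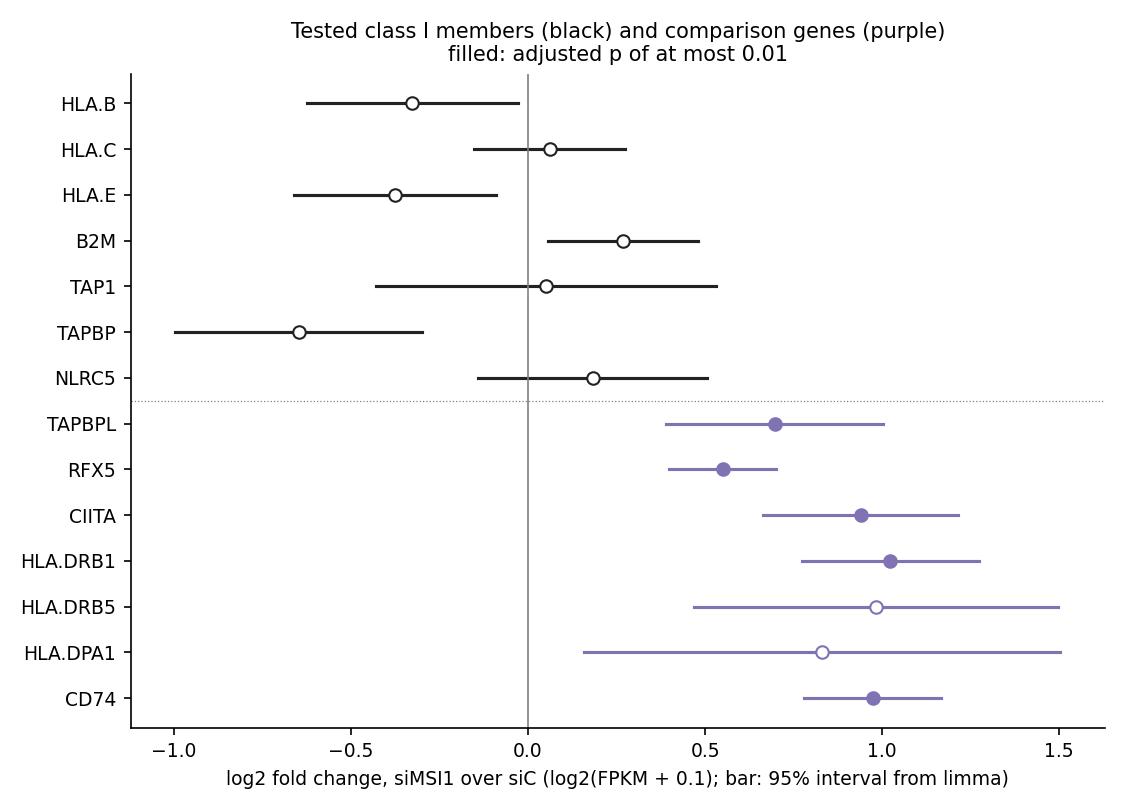
Log2 fold change, siMSI1 over siC on log2(FPKM + 0.1), with its 95% interval from limma, for the 7 tested class I genes (black) and 7 comparison genes (purple). Filled points passed an adjusted p of 0.01. None of the black points is filled, while CIITA, RFX5, CD74, HLA.DRB1 and TAPBPL are. The purple genes are the tested class II genes and only the called genes of the peptide loading and promoter factor lists. In those lists, 1 of 11 and 2 of 12 tested genes were called, so the purple genes do not stand for them.

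Other genes of the pathway were taken from 12 lists with 163 genes. Of these, 100 were tested and 21 called, beside the 11.0% of all tested genes, which is a description of the lists. The same 11.0% is the share to set beside the count called in each list below. Among the genes that load and edit peptides (11 tested), 1 was called. TAPBPL, a tapasin relative that edits peptides outside the loading complex, rose from 2.102 ± 0.322 to 3.44 ± 0.113 FPKM (SD, n = 3, log2 fold change 0.70, adjusted p = 0.0083, limma), and this call was lost whichever library was left out (adjusted p 0.014 to 0.031, limma). The chaperone CALR was at 384 FPKM in siC and 328 in siMSI1 (−0.23, adjusted p = 0.067, limma). The chaperone HSPA5 (0.12) and the glucosidase subunit GANAB (−0.06) did not pass either. The ratio of TAPBPL to TAPBP, chosen after the values were seen, was 0.288, 0.260 and 0.404 in siC and 0.713, 1.02 and 0.742 in siMSI1. The groups did not overlap, with an exact permutation p of 0.1, the smallest this design allows (0.133 adjusted over 4 ratios, two-sided).

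The proteasome cuts the peptides, and interferon exchanges its catalytic subunits for immunoproteasome subunits. None of the 5 immunoproteasome genes was called, with a median log2 fold change of 0.27. PSMB8 was at 0.27 (adjusted p = 0.27, limma), the activator subunit PSME1 at 0.20 (0.078), and PSME2 at 0.28 (0.016). Of their 4 standard counterparts, PSMB5 rose from 79.6 to 122 FPKM (log2 fold change 0.62, adjusted p = 0.0014, limma) and PSMB7 from 109 to 144 FPKM (0.40, 0.0047). PSMB6 fell from 177 to 129 FPKM (−0.46, adjusted p = 0.0065, limma). With 1 library left out, PSMB6 was called in 1 of 6 fits and PSMB7 in 2 of 6, and PSMB5 in all but that without siC replicate 1 (adjusted p = 0.011, limma).

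Among the factors that bind class I and class II promoters, 2 of 12 were called, both higher. RFX5, a DNA-binding subunit of the RFX complex, had levels of 29.6, 29.6 and 31.3 FPKM in siC compared with 42.6, 46.7 and 43.2 in siMSI1 (log2 fold change 0.55, adjusted p = 0.0013, limma). CIITA, the class II counterpart of NLRC5, had levels of 1.37, 1.28 and 1.30 FPKM in siC compared with 2.58, 2.48 and 2.80 in siMSI1 (0.94, adjusted p = 0.0016, limma). For both genes all siMSI1 libraries lay well above all siC libraries. CIITA was called whichever library was left out, and RFX5 in all but the fit without siC replicate 1 (adjusted p = 0.011, limma). RFXANK, the other subunit of the RFX complex that ranked among the most abundant, was at 0.01, and NFYA, a subunit of NF-Y, at −0.10.

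The class II genes, which serve presentation to CD4 T cells, were measured beside them. Of 13 genes 4 were tested, 2 were called and the median log2 fold change was 0.98. CD74, the invariant chain that escorts class II molecules, had levels of 21.7, 21.3 and 24.0 FPKM in siC compared with 42.0, 41.8 and 48.4 in siMSI1 (0.97, adjusted p = 0.00043, limma). HLA.DRB1, a class II beta chain, had levels of 16.9, 14.3 and 16.9 FPKM in siC compared with 28.6, 33.1 and 36.5 in siMSI1 (1.02, adjusted p = 0.00080, limma). For both genes every siMSI1 library lay above every siC library. HLA.DRB5, a near copy of HLA.DRB1 with which it may share reads, was at 0.98 (adjusted p = 0.016, limma), and HLA.DPA1, a class II alpha chain, at 0.83 (adjusted p = 0.072, limma). The ratios that follow were chosen after the values of their genes were seen, so their p-values give no separate support. The ratio of CD74 to the sum of HLA.B and HLA.C was 0.154, 0.167 and 0.156 in siC and 0.319, 0.311 and 0.310 in siMSI1 (exact permutation p = 0.1, adjusted 0.133). Within class I, the ratio of HLA.B to HLA.C was 0.207, 0.217 and 0.235 against 0.177, 0.150 and 0.176, also without overlap (exact permutation p = 0.1, adjusted 0.133). This ratio rests on the uncertain split of reads between these genes. The ratio of HLA.B and HLA.C together to B2M was 4.75, 3.70 and 5.12 against 3.50, 3.25 and 4.50, with overlap (exact permutation p = 0.2).

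**Figure D4:**
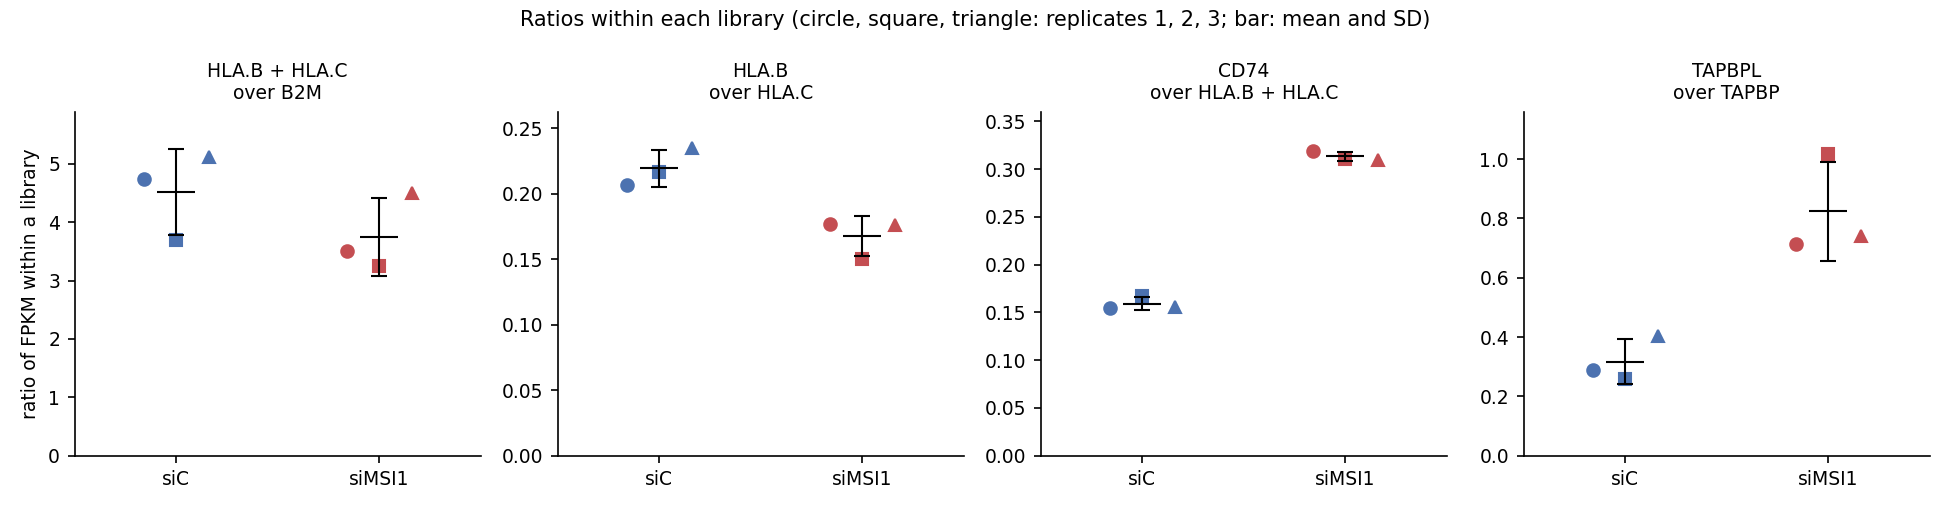
Ratios of FPKM within each library, siC in blue and siMSI1 in red, with mean and SD (n = 3) and marker shapes for replicates 1 to 3. All ratios were chosen after the values were seen. The ratio of CD74 to the sum of HLA.B and HLA.C sits at 0.154 to 0.167 in siC and at 0.310 to 0.319 in siMSI1.

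Of 20 tested interferon and NF-kB regulators upstream of class I expression, 3 were called, beside 11.0% of all tested genes. Of these, 2 fell and 1 rose. STAT2, a subunit of the interferon-activated ISGF3 complex, fell from 12.0 to 7.93 FPKM (log2 fold change −0.60, adjusted p = 0.0013, limma). SOCS1, an inhibitor of JAK signaling, fell from 15.9 to 10.2 FPKM (−0.63, adjusted p = 0.0028, limma). NFKBIA, the inhibitor of NF-kB, rose by 0.43 (adjusted p = 0.0054, limma). With 1 library left out, STAT2 was called in 5 of 6 fits, SOCS1 in 3 and NFKBIA in 1, with adjusted p up to 0.011, 0.012 and 0.030 (limma). RELA, the NF-kB subunit, was at 0.18 and SOCS3 at 0.46 (adjusted p = 0.024, limma). Of the 9 interferon genes, 8 were listed at 0 in all libraries and none was tested.

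Of the 45 interferon-stimulated genes listed, 27 were tested and 6 called, all higher, with a median log2 fold change of 0.27. GBP2, an interferon-induced GTPase, rose from 3.25 to 9.84 FPKM (1.57, adjusted p = 0.00021, limma). IFI35 rose from 14.6 to 26.0 FPKM (0.83, adjusted p = 0.0013, limma) and UBE2L6, the conjugating enzyme of ISG15, from 16.8 to 26.2 FPKM (0.63, 0.0022). The other called genes were OAS1 (0.92), GBP1 (0.79) and the DNA sensor IFI16 (0.57). With 1 library left out, OAS1 was called in 0 of 6 fits, GBP1 in 2 and IFI16 in 3, with adjusted p up to 0.031, 0.025 and 0.015 (limma), and UBE2L6 in all but the fit without siC replicate 1 (0.015). The immunoproteasome genes PSMB8 and PSMB9 are also on this list. IFITM3, the most abundant gene of the list, was at 0.37 (adjusted p = 0.025, limma) and PARP14 at −0.12. Of the 27 genes, 7 were below 0 and 20 above. Among those below 0, chosen after their values were seen, IFIT3 was at 10.1 FPKM in siC and 7.45 in siMSI1 (−0.45, adjusted p = 0.031, limma) and TRIM22 at 7.29 and 5.58 FPKM (−0.38, adjusted p = 0.035, limma), both without overlap between the groups and without passing the threshold.

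**Figure D5:**
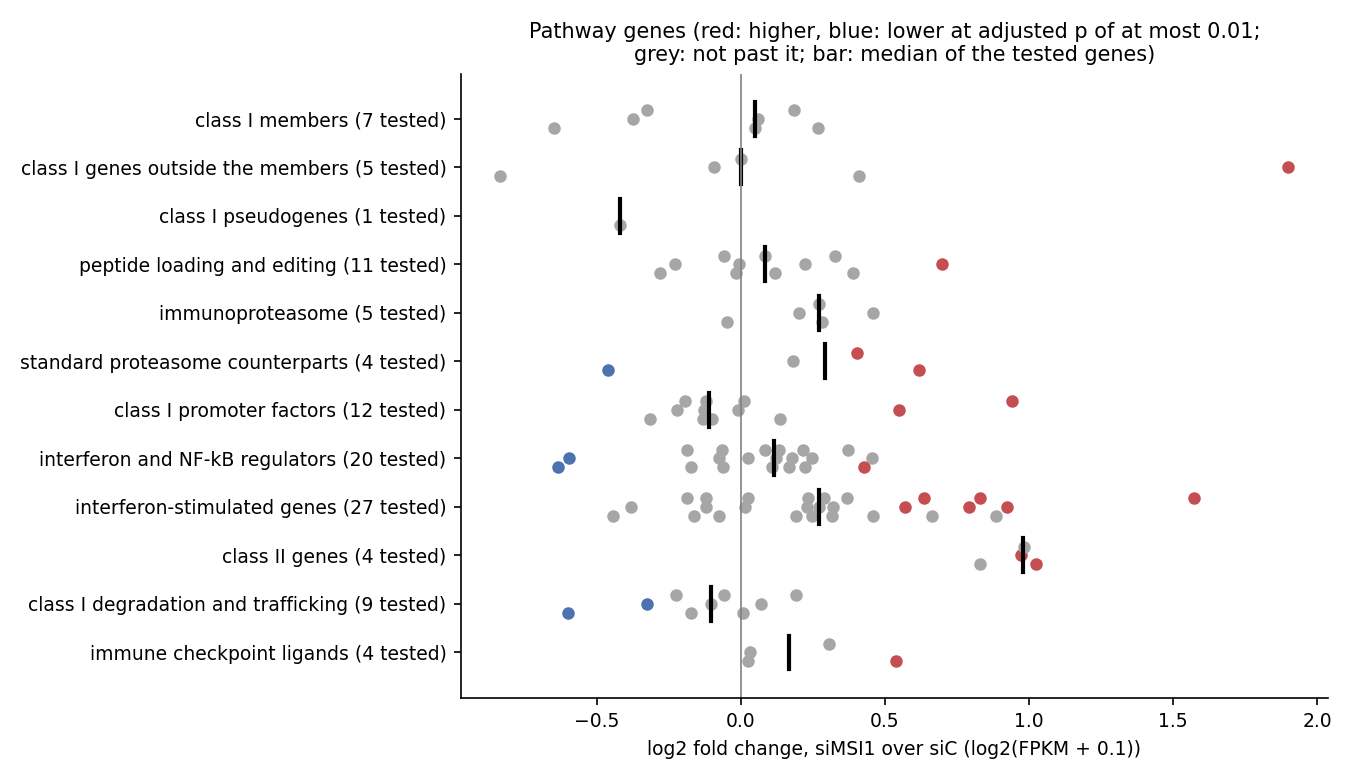
Log2 fold change, siMSI1 over siC on log2(FPKM + 0.1), of the tested genes of each list, 1 point per gene, with red for higher and blue for lower at an adjusted p of at most 0.01 (limma) and a bar at the median. All 7 tested class I members are grey, and 6 of 27 interferon-stimulated genes are red.

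The other class I genes listed were mostly low. Of 15 listed, 5 were tested. PROCR, the endothelial protein C receptor with a class I-like fold, rose from 1.03 to 4.05 FPKM (log2 fold change 1.90, adjusted p = 0.00057, limma). Of 7 endothelial and pericyte markers, ACTA2, a smooth muscle actin, was the most abundant and the only one to pass the filter, and it fell by 0.61 (adjusted p = 0.0044, limma, and up to 0.025 with 1 library left out). The endothelial cadherin CDH5 had 2, 3 and 0 reads in siC and 9, 11 and 22 in siMSI1. PECAM1, an endothelial adhesion molecule, had 1, 1 and 0 reads against 8, 7 and 5, so both were higher in every siMSI1 library, on few reads. Of the other markers, CLDN5 and KDR had at most 1 read, while VWF and RGS5 (ENSG00000143248) overlapped between the groups. The summed level of the 7 markers was 68.0, 62.7 and 61.8 FPKM in siC and 41.1, 37.5 and 48.5 in siMSI1, most of it ACTA2, and the part of these markers in the result for PROCR was not tested. ULBP2, a ligand of the NK cell receptor NKG2D, was at 1.19 FPKM in siC and 0.617 in siMSI1 on 11 to 34 reads (−0.83, adjusted p = 0.028, limma), with the groups apart but the threshold not passed. MR1, which presents vitamin metabolites, was at −0.09. HFE, which regulates iron uptake, was at 0.00 and FCGRT, the neonatal Fc receptor, at 0.41 (adjusted p = 0.11, limma). Of 9 class I pseudogenes, 6 were listed at 0 throughout. HLA.H, a class I pseudogene, had levels of 3.84, 3.03 and 3.93 FPKM in siC compared with 2.41, 2.58 and 2.99 in siMSI1 (−0.42, adjusted p = 0.059, limma). How strand entered the counting is not stated. PSMB9, which overlaps TAP1 on the opposite strand, was at 0.792 FPKM in siC and 1.09 in siMSI1, about the level of TAP1 (mean 0.927 FPKM over all libraries), so reads of these genes may not be told apart. The gene opposite to HLA.B reached at most 2.45 FPKM.

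Other genes were ranked by their correlation with the mean level of the class I genes. Over the 6 libraries, the mean log2 level of the 7 tested class I genes was 3.05, 3.04 and 3.16 in siC and 2.95, 2.88 and 3.08 in siMSI1, with overlap. The 5 genes with the highest Pearson r with it, of 13033 ranked, were LRRC75B (0.998), PCED1A (0.996), AC010326.4 (0.995), BTBD2 (0.992) and STARD3 (0.991). None of these 5 was called. Among so many genes ranked over 6 libraries, r values this high can arise by chance, which was not tested. The mean also pools members that ran against each other, such as HLA.B and B2M (r = −0.92). A high r with it is therefore not likeness to each class I gene.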

How the data were processed

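The 6 libraries of KNS42 cells (siC and siMSI1) were grouped by their labels. The authors trimmed reads with Cutadapt 1.14, aligned them to GRCh38 with HISAT2 2.1.0 and SAMtools 1.5, counted them per gene with featureCounts 1.5.3 on Ensembl release 89, and deposited FPKM with gene lengths. Their own fold changes, p-values and false discovery rates (edgeR 3.18.1 with TMM) were not used. Reads were recovered as whole numbers for 100% of values (tolerance 0.01). For a 2 kb gene, the floor of 3 reads was 0.0829 to 0.114 FPKM, which covers counting error only. Genes with a mean of at least 0.5 FPKM were fitted with limma 3.58.1 in R 4.3.3 on log2(FPKM + 0.1) (eBayes with trend and robust, Benjamini-Hochberg over all 15069 tested genes). This fit on the deposited FPKM was used in place of the count test of the authors, and the recovered reads were tested with voom as an alternative. The script was tested on simulated data. Positions are from GENCODE release 44. The members and lists were chosen with earlier results of these data known. Of the listed genes, 1 is not reported here. Named were the other members, list genes called or among the 3 most abundant of their list, and MSI1. The 5 genes most correlated with the mean of the members and called genes of the MHC region were named too. Also named were S100B and OLIG2, listed at 0 in all libraries, and PSMB9, which overlaps TAP1. HLA.DRA, HLA.DRB5, HLA.DPA1, PTPRC, IFIT3, TRIM22, ULBP2, MR1, the untested vascular markers and the 4 ratios were singled out after their values were seen. Alternatives were other added values, filters, scalings, moderation, voom, a replicate block, a threshold of 0.05 and each library left out.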

Additional observations from a re-analysis of the deposited data

How the results depend on the processing

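Across 16 alternatives, none of the 31 named genes past the threshold changed direction. Of their values, 109 were no longer past it and 387 stayed past it. The threshold of 0.05 reuses the main fit, so it could neither reverse nor lose a called gene. Without a filter 792 genes were called, without trend and robust moderation 847, with voom 2690 and at an adjusted p of 0.05 3787, against 1655. Leaving out a library gave 517 to 1603, the lowest without siC replicate 1. Of the class I members, voom called 1 (TAPBP), a threshold of 0.05 1 (TAPBP), and leaving out a library 0 to 0. For the pathway genes, 12 were called without a filter, 11 without trend and robust moderation, 34 at 0.05 and 6 to 18 with a library left out, against 21. CD74, CIITA, HLA.DRB1, GBP2, IFI35 and PROCR were called whichever library was left out, and TAPBPL, OAS1, CD276 and TMED10 in no such fit. CALR, not called in the main fit, passed 0.01 under quantile normalization (−0.25, adjusted p = 0.0059, limma). Also not called in the main fit, PSME2 passed 0.01 in 1 alternative, SOCS3 in 2, and IFITM3 and VIM in 3 each. The causes were not tested.

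Same-numbered libraries deviated from their group means with r of −0.066, 0.078 and 0.083, so the numbers were not taken to pair them, and siC replicate 1 did not correlate best with its own number. The replicate block called 2250 genes, 23 pathway genes and 1 member (HLA.B, adjusted p = 0.0058, limma).

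Signs reversed for values near 0. Quantile normalization gave BCAP31 −0.032, NECTIN2 −0.0023 and RFXANK −0.014, and voom gave HFE −0.00019. With a library left out, log2 fold changes ran from −0.011 to 0.12 for HLA.C, −0.050 to 0.18 for TAP1, −0.033 to 0.070 for BCAP31, −0.021 to 0.10 for CD47, −0.055 to 0.063 for HFE, −0.062 to 0.10 for NECTIN2, −0.063 to 0.094 for RFXANK and −0.16 to 0.054 for TRAM1. Depth limits HLA.F, TAP2 and TAP1, which rest on few reads.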

Other observations

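The stretch of chromosome 6 from HLA.F to TAPBP (chr6:29722775-33314284) held 304 genes of the table, among them 7 of the class I members described. Of the 63 other tested genes there, 5 were called (7.94%), beside 11.0% of all tested genes. The median log2 fold change of the 63 genes was 0.08, beside 1.5e-05 over all tested genes. TCF19, a nuclear factor of the cell cycle, fell by 0.91 and ATF6B, a sensor of endoplasmic reticulum stress, fell by 1.04 on the log2 scale (adjusted p = 0.00045 and 0.00094, limma). C6orf48, a host gene of small nucleolar RNAs, rose by 1.05, PBX2, a homeodomain factor, by 0.72, and HLA.DRB1 by 1.02 (adjusted p = 0.0030, 0.0087 and 0.00080, limma). With 1 library left out, C6orf48 was called in 3 of 6 fits (adjusted p up to 0.015, limma) and PBX2 in 0 of 6 (0.016 to 0.040).

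Genes that dispose of or move class I molecules included 2 called of 9 tested, both lower. DERL1, which helps to export heavy chains from the endoplasmic reticulum, fell by 0.60 (adjusted p = 0.0020, limma) and the cargo receptor TMED10 fell by 0.33 (adjusted p = 0.0096, limma). With 1 library left out, DERL1 was called in 4 of 6 fits and TMED10 in 0. Among immune checkpoint ligands, 1 of 4 tested was called. CD276, also known as B7-H3, rose by 0.54 (adjusted p = 0.0084, limma, but 0.010 to 0.030 with 1 library left out), while CD47 (0.030) and NECTIN2 (0.025) did not pass.

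HLA.DRA, the partner chain of HLA.DRB1, had 1 to 8 reads per library, at 0.0521, 0.0864 and 0.0543 FPKM in siC and 0.265, 0.119 and 0.435 in siMSI1, while HLA.DRB1 had 299 to 644 reads. This contrast was noticed after the values were seen, and its cause was not tested.

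Of 10 glioma and neural markers, 8 were tested, 4 fell and 1 rose. The 4 that fell were MSI1 itself, the target of the siRNAs, FABP7, a fatty acid-binding protein of radial glia, which fell by 1.12 (adjusted p = 0.00027, limma), the receptor NOTCH1, which fell by 0.89 (0.0024), and the hyaluronan receptor CD44, which fell by 0.46 (0.0030). GFAP, the astrocyte filament protein, rose from 1.63 to 4.61 FPKM (1.46, adjusted p = 0.00090, limma). With 1 library left out, FABP7 and GFAP were called in 6 of 6 fits, NOTCH1 in 3 (adjusted p up to 0.016, limma) and CD44 in 1 (up to 0.023).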
